A study of Drosophila melanogaster with 76 samples.

Results

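Binding of HA-tagged Twist (HA-Twi) was followed across 4 doses of copper sulfate, 0, 10, 40 and 160 µM, in the Drosophila melanogaster line S2. S2 cells are cultured cells with properties of embryonic blood cells. The HA-Twi line, given in the labels as genotype S2-HA-Twi, carries a construct whose expression is induced by copper, and cells were harvested 48 h after copper was added. Chromatin immunoprecipitation and sequencing (ChIP-seq) with an anti-HA antibody gave 1 peak list per dose, chosen by the group titles, and each list pools 2 libraries. The 4 lists, from 8 of the 76 libraries of the study, held 12018 of the 179969 regions in its 31 peak lists. Joined by overlap they gave 5830 merged regions, out of 18718 for all lists. The background list came from wild-type S2 cells (genotype S2-WT) given 40 µM copper sulfate and the same antibody, so the 0, 10 and 160 µM lists had no wild-type list at their own dose. Further lists served for comparison. They were the HA-Twi line at 40 µM copper sulfate with DMSO or with a treatment written taz in the labels, and the line with Twist without the tag (genotype S2-Twi) at 40 µM with an anti-Twi antibody. Wild-type cells were also used with anti-Twi at 40 µM, anti-Zld at 1000 µM and anti-Grh at 100 µM copper sulfate. The lines S2-Zld, with Zelda (Zld), and S2-Grh, with Grainy head (Grh), were used with antibodies to their factors. Their doses ran from 0 to 1500 µM and from 0 to 400 µM. Counts out of 31 lists take in the remaining lists of the study as well. The sources used here do not say whether the HA-Twi line is a clone, and the amount of HA-Twi protein at each dose was not analysed here.

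Twist is a basic helix-loop-helix transcription factor that binds DNA at E-box sequences as a dimer. In the early Drosophila embryo it stands at the top of the program that makes the mesoderm. There it acts with the Rel-family factor Dorsal on genes that drive gastrulation, and later on genes of the FGF pathway, of the heart and of muscle. S2 cells are not mesoderm of that stage, so the dose series shows where the factor is found in a foreign cell type.

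Because a list pools its libraries, there was 1 value per dose, and neither a replicate spread nor a test could be had. Shares are given with exact Clopper-Pearson 95% intervals, which cover counting error only. The fold of a region is the authors' fold enrichment at its highest summit. It was used to rank regions within a list, and folds of different lists stand side by side without a comparison of strength.

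HA-Twi was found at more places with each higher dose. The lists held 77 regions at 0 µM, 2498 at 10 µM, 3862 at 40 µM and 5581 at 160 µM. The regions covered 40.1 kb of the genome at 0 µM, 1667 kb at 10 µM, 2825 kb at 40 µM and 4434 kb at 160 µM. Their median width was 369 bp, 562 bp, 577 bp and 592 bp in the same order, so the covered length followed mainly the number of regions from 10 µM upward. The step from 0 to 10 µM added the largest number of regions. Regions with a single summit made up 89.6% of the 0 µM list and between 69.7% and 71.5% of the others.

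The peak numbers in the lists had gaps, which differed between doses. The numbers in the deposited names ran to 460 at 0 µM, 11152 at 10 µM, 6963 at 40 µM and 8832 at 160 µM. Of the numbers up to these values, 16.7%, 22.4%, 55.5% and 63.2% remained in the lists. The highest peak number thus belonged to the 10 µM list, whose remaining share was far below those at 40 and 160 µM. The level of local background recovered at the summits also differed, with a 1st percentile of 28.0 at 0 µM, 21.3 at 10 µM, 35.0 at 40 µM and 35.4 at 160 µM. The median had another order, with 79.8, 50.6, 71.4 and 66.7, and the 0 µM values rest on 88 summits. In the wild-type anti-HA list the 1st percentile was 31.7 and the median 56.9, and 39.0% of the peak numbers remained there. The part of depth and filter in the region numbers was not tested.

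The regions of a lower dose were contained in those of a higher dose. Of the 0 µM regions, 96.1% (89.0 to 99.2) overlapped a 10 µM region. Of the 10 µM regions, 88.6% (87.3 to 89.8) overlapped a 40 µM region, and of the 40 µM regions, 96.6% (95.9 to 97.1) overlapped a 160 µM region. In the other direction, 37.6% of the 160 µM regions were found at 10 µM and 61.9% at 40 µM. Over the merged regions, 5426 of 5830, or 93.1% (92.4 to 93.7), were called at every dose above the lowest at which they appeared. These 5426 include the 1995 merged regions called at 160 µM alone, for which the series had no higher dose to miss. The most frequent patterns were 160 µM alone (1995 merged regions), 10, 40 and 160 µM (1890), and 40 and 160 µM (1472). All 4 lists shared 69 merged regions. The remaining 404 skipped or lost a dose, among them 142 called at 10 µM alone, 129 called at 10 and 160 µM and 92 called at 40 µM alone.

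**Figure D1:**
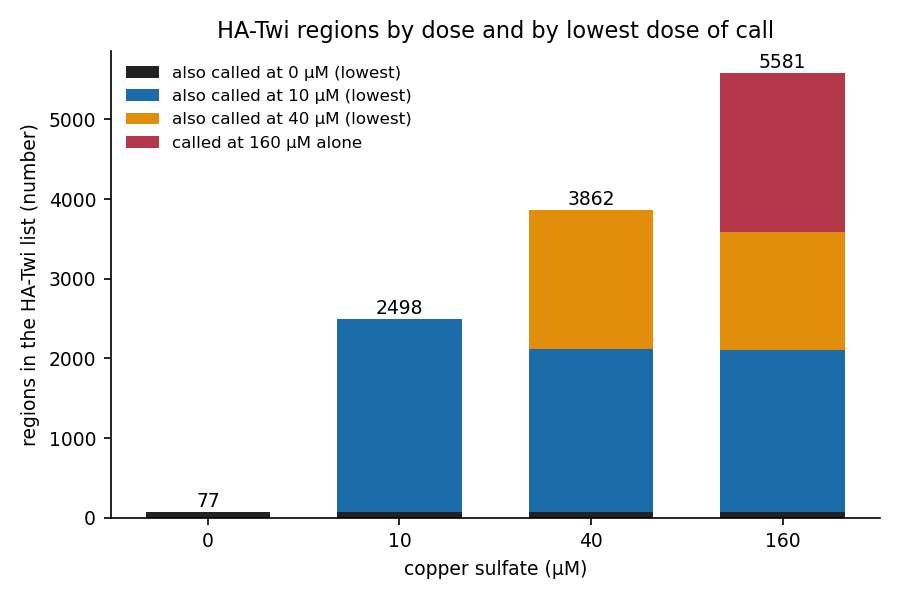
Number of HA-Twi regions (vertical axis) at each copper sulfate dose (horizontal axis, µM), with the bar divided by the lowest dose of the series at which an overlapping region was called. The 160 µM bar of 5581 regions is made of 69 found from 0 µM, 2031 from 10 µM (1899 of them also called at 40 µM), 1486 from 40 µM and 1995 called at 160 µM alone.

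Which regions were kept from 10 µM followed their rank. The list was divided into 10 groups of equal size by fold. In the group with the highest fold (4.89 to 17.8), 100% of 250 regions overlapped a 40 µM region and 99.6% a 160 µM region. In the group with the lowest fold (1.46 to 1.95), 54.2% of 249 did so at 40 µM and 72.7% at 160 µM. Regions of the lowest group also lay in the wild-type anti-HA list in 50.2% of cases, against 10.4% for the highest group. Containment depends on the length of the lists, since with each list cut to the 2498 regions of highest fold, 62.7% of the 10 µM regions were found at 40 µM. The 180 regions of the 10 µM list that were not called at 160 µM had a median fold of 2.06, and 2 of them (1.11%) were found in the DMSO or the taz list. Among the 2318 that were called at 160 µM the median fold was 2.80, and 66.4% were found in either list.

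For most shared regions the strongest summits of neighbouring doses lay close together. For regions shared by 40 and 160 µM (3729 pairs), the strongest summits lay a median of 13 bp apart (12 to 13), and 83.5% lay within 50 bp. For 10 and 40 µM (2213 pairs) the median was 21 bp (20 to 23) with 73.0% within 50 bp, and for 0 and 10 µM (74 pairs) it was 25.5 bp (16 to 33). Strongest summits over 400 bp apart made up 10.4% of the 40 and 160 µM pairs and 11.4% of the 10 and 40 µM pairs. Across the wider step from 10 to 160 µM (2318 pairs) the median was 33 bp (30 to 35), with 61.3% within 50 bp. The 40 µM list and the DMSO list, which share the dose and not the libraries, differed by a median of 16 bp (15 to 17) over 1891 pairs. Of the 1898 pairs with 1 summit at both 40 and 160 µM, 95.1% lay within 50 bp. When the nearest summits were taken, 95.7% of the 40 and 160 µM pairs and 87.8% of the 10 and 40 µM pairs lay within 50 bp. The region around the summit was wider at the higher dose in 88.6% of the 40 and 160 µM pairs, and in 80.1% of the 10 and 40 µM pairs. The 160 µM region held more summits than its 40 µM partner in 27.7% of pairs and fewer in 6.14%. Between the 40 µM and DMSO lists the region was wider in the DMSO list in 47.5% of pairs.

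The lowest dose of a region was related to its rank at 160 µM, with an exception. Within the 160 µM list the median fold was 3.35 for the 1899 regions called from 10 µM and kept at 40 µM, named the 10 and 40 µM class below. It was 3.42 for the 1486 regions called from 40 µM and 2.43 for the 1995 called at 160 µM alone. The order of the first 2 classes depended on the regions entered, since outside the wild-type list the medians were 3.88 and 3.52. Regions called at 160 µM alone were lower in both cases, with 2.48 outside the wild-type list. The 132 regions called at 10 and 160 µM but not at 40 µM had the lowest median, 1.92. Of the group of the 160 µM list, divided in the same way, with the highest fold (5.67 to 10.8), 97.3% (95.6 to 98.5) were found at 40 µM and 58.3% (54.1 to 62.4) at 10 µM. Of the group with the lowest fold (1.18 to 1.92), 32.4% (28.6 to 36.5) were found at 40 µM and 31.5% (27.7 to 35.6) at 10 µM. The share found at 40 µM was lower in every group than in the group above it, while the share found at 10 µM lay between 26.7% and 37.3% below the 3 groups of highest fold.

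**Figure D2:**
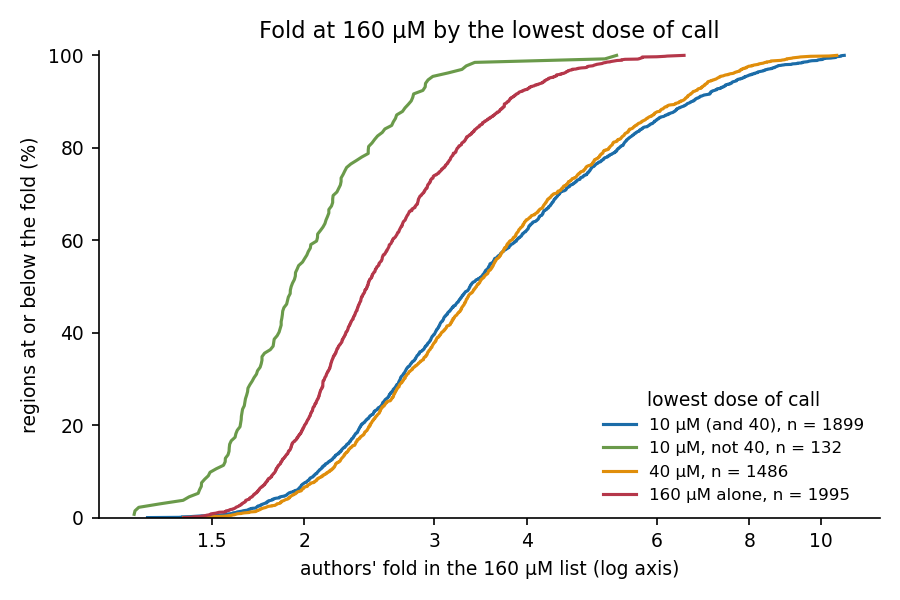
Cumulative share of regions (vertical axis, %) at or below the authors' fold in the 160 µM list (horizontal axis, log scale), for regions grouped by the lowest dose of call. The curves for 10 and 40 µM (median 3.35) and 40 µM (median 3.42) cross, while regions at 160 µM alone (2.43) and at 10 but not 40 µM (1.92) lie at lower folds.

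The share of regions also present in wild-type cells was largest at the low doses. It was 42.9% (31.6 to 54.6) at 0 µM, 29.6% (27.8 to 31.4) at 10 µM, 19.2% (17.9 to 20.4) at 40 µM and 16.7% (15.7 to 17.7) at 160 µM. Of the merged regions of all lists, 10.3% held a wild-type anti-HA region. The number of HA-Twi regions in the wild-type list was 33, 739, 740 and 931 in the order of dose, so that it was nearly the same at 10 and 40 µM while the lists grew. The order at 0 µM rested on regions of low fold, since of its 11 regions with a fold of at least 3 a share of 9.09% lay in the wild-type list. Seen from the wild-type list of 2264 regions, 32.6% were found at 10 µM, 33.1% at 40 µM and 42.3% at 160 µM, and 53.9% were found at no dose. By class, 30.2% (28.2 to 32.3) of the 160 µM regions called from 10 µM and kept at 40 µM lay in the wild-type list. The share was 7.27% (6.00 to 8.71) for those called from 40 µM and 8.22% (7.05 to 9.51) for those at 160 µM alone. Both were below the 10.3% of all merged regions, a level that counts the wild-type regions themselves.

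Regions called at 10 and 40 µM were also more often found with other antibodies and factors than those called from 40 µM or at 160 µM alone. The former were also wider, with median widths at 160 µM of 950 bp for the 10 and 40 µM class, 620 bp from 40 µM and 414 bp at 160 µM alone, and a wider region has more room for an overlap. The part of width in the shares was not tested. A region of any of the 4 wild-type lists (anti-HA, anti-Twi, anti-Zld and anti-Grh, the latter 2 at other doses of copper) overlapped 70.3% (68.2 to 72.3) of the 10 and 40 µM class. It overlapped 35.8% (33.4 to 38.3) of those called from 40 µM and 32.3% (30.3 to 34.4) of those at 160 µM alone, against 31.3% of all merged regions. Grainy head (Grh) is a factor of epithelial genes. Its list at 400 µM copper sulfate held 79.6%, 47.4% and 44.6% of the 3 classes, against 53.4% of all merged regions. Zelda (Zld) activates the first zygotic genes. Its list at 1500 µM held 62.3%, 37.3% and 37.8%, against 42.6%. The 10 and 40 µM class therefore lay above the level of all merged regions in each of these lists. The regions added at 40 and 160 µM lay below it for Grh and Zld. That level counts the regions of the Grh and Zld lists themselves, which raises it. No lack of Grh or Zld regions can therefore be read from the lower shares.

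The shares in the list made with Twist without the tag lay close together. The Twi line with the anti-Twi antibody, whose list of 12106 regions held 57.7% of all merged regions, shared 95.5% (94.5 to 96.4) of the 10 and 40 µM class. It shared 91.6% (90.1 to 92.9) of those called from 40 µM and 92.1% (90.9 to 93.3) of those at 160 µM alone. Regions that appeared at 160 µM alone were thus in the list of a different Twist line at 40 µM about as often as those called from 40 µM. Wild-type background regions were in that list about as often, with 93.9% (92.8 to 94.8) of the 2264 wild-type anti-HA regions. Of the wild-type anti-Twi regions it was 90.9%. A place in the anti-Twi list therefore does not set HA-Twi regions apart from the background. Over whole lists, the share in the anti-Twi list was 87.0% (77.4 to 93.6), 93.1%, 92.3% and 93.2% from 0 to 160 µM.

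The lists of the HA-Twi line at 40 µM with DMSO or taz gave a view of the same line in other libraries. The DMSO list, which held 10.1% of all merged regions, shared 57.8% (55.5 to 60.0) of the 10 and 40 µM class. It shared 41.9% (39.3 to 44.4) of those called from 40 µM and 14.6% (13.1 to 16.3) of those at 160 µM alone. In the taz list, which held 17.9% of all merged regions, the shares were 66.9%, 56.0% and 39.2%. Of the 1995 regions called at 160 µM alone in the dose series, 807 (40.5%) were found in the DMSO or the taz list, both at 40 µM. In the reverse view 97.6% (96.9 to 98.2) of the 2197 DMSO regions lay in the 160 µM list. In the list at 40 µM, the labelled dose of the DMSO cells, it was 84.6% (83.0 to 86.1). The 160 µM list is longer, with 5581 regions against 3862, and so has more room for an overlap. The part of list length was not tested. The 132 regions at 10 and 160 µM but not 40 µM were nearly missing from the DMSO list, at 3.03% (0.832 to 7.58).

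**Figure D3:**
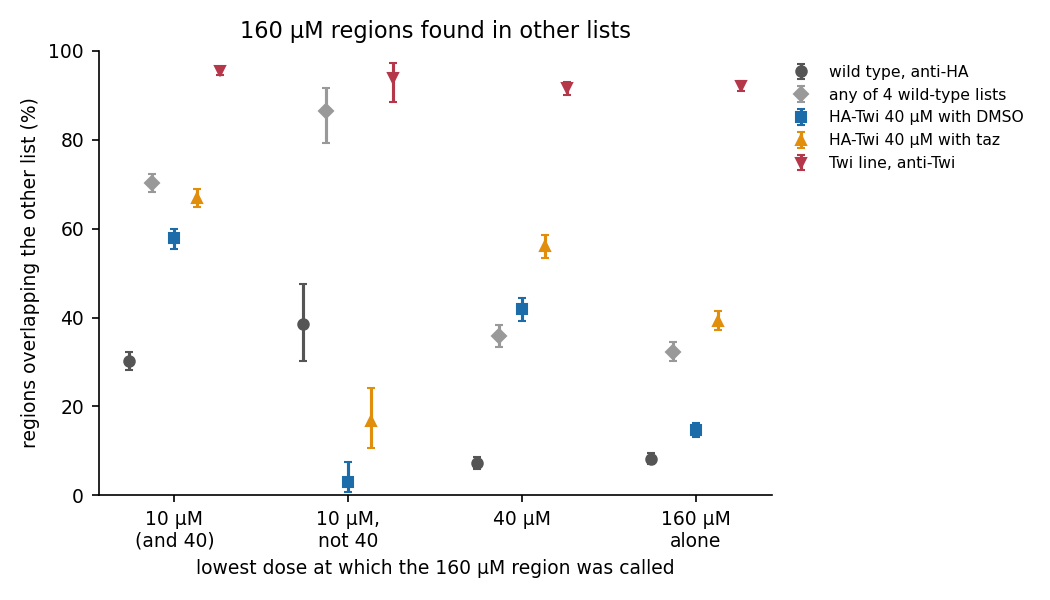
Share of 160 µM regions (vertical axis, %) that overlapped each of 5 other sets of lists, by the lowest dose of call (horizontal axis). Bars are exact 95% binomial intervals. The share in the anti-Twi list stays between 91.6% and 95.5%, while the share in any wild-type list is 70.3% for the regions called at 10 and 40 µM and 32.3% for those at 160 µM alone.

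Most HA-Twi summits lay inside genes, away from their ends. The share of regions with the strongest summit within 500 bp of an end of a protein-coding gene was 19.5% (11.3 to 30.1) at 0 µM, 15% (13.6 to 16.5) at 10 µM, 13.1% (12.1 to 14.2) at 40 µM and 16.2% (15.3 to 17.2) at 160 µM. In the wild-type anti-HA list it was 56.6% (54.5 to 58.6) and in the anti-Twi list 38.6% (37.7 to 39.5). In the DMSO and taz lists it was 9.01% (7.85 to 10.3) and 11.6% (10.6 to 12.7). Summits inside a gene and farther from its ends made up 59.7%, 69.7%, 72.3% and 69.6% of the 4 lists. The share of the genome in such positions was not computed, so these values have no base share beside them. Among the 160 µM regions, 20.3% (18.5 to 22.1) of those called at 160 µM alone lay near a gene end, against 13.2% (11.7 to 14.8) of the 10 and 40 µM class and 13.3% (11.6 to 15.2) of those called from 40 µM. For the 132 regions at 10 and 160 µM but not 40 µM it was 31.8% (24.0 to 40.5). Within the 160 µM list the share was 8.05% in the group of highest fold and 30.3% in that of lowest fold. Chromosome arms took similar parts of the 3 induced lists, with between 15.5% and 16.7% of regions on X and between 24.9% and 25.0% on 3R.

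The regions with the highest folds called at 10, 40 and 160 µM and absent from wild type lay within genes with varied roles. The leading region at 160 µM lay in CG43658 (X, 17503804 to 17505250). Its fold was 9.53 at 10 µM, 10.3 at 40 µM and 10.8 at 160 µM, and its width was 731 bp, 1153 bp and 1447 bp. It was followed by a region in Slc45-1, which encodes a solute carrier (3L, 9204151 to 9207509). This region was already called at 0 µM, with a fold of 2.72 and a width of 325 bp, and had folds of 10.1, 9.87 and 10.7 at the higher doses. A region in zld, the gene of Zelda itself, came next and is described with the 0 µM list. The regions in ltl (fold 10.7 at 160 µM), which encodes a leucine-rich repeat protein of BMP signalling, and in Rbfox1 (10.6), a splicing regulator, were called at each induced dose. So were those in cv-c (10.6), Inx2 (10.6), a gap junction protein gene, and Myo28B1 (10.5), a myosin gene. The list of 10 closed with Hs6st (10.5), which encodes a heparan sulfate sulfotransferase, and CG3777 (10.5). Except for Inx2, called in 22 of the 31 lists, and zld, called in 16, these regions were found in 6 or 7 lists. In these 6 or 7 they were found with HA-Twi or Twi, and their folds in the anti-Twi list ranged from 9.50 to 11.3.

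Among regions called from 40 µM, the leading ones at 160 µM lay in br (fold 8.31 at 40 µM and 10.5 at 160 µM), which encodes the ecdysone-induced factor Broad, and in trol (7.84 and 10.4), the gene of the basement membrane protein perlecan. SP1173 (7.98 and 10.3), a second region in cv-c (7.74 and 9.68), Cpr (8.28 and 9.52), which encodes cytochrome P450 reductase, and CG44325 (7.14 and 9.38) came next. All 6 were also in the DMSO, taz and anti-Twi lists. A fold of 8.31 at 40 µM placed br high in that list, so these regions were absent at 10 µM although well placed at 40 µM.

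At 160 µM alone the leading region lay in Pvf2 (2L, 7074396 to 7074937, fold 6.53), which encodes a PDGF- and VEGF-like growth factor of blood cells. It was followed by regions near Chsy (fold 6.42), a chondroitin synthase gene, near CG1907 (6.30), and in AdamTS-A (6.19), a secreted metalloprotease gene, bbg (6.16) and CG33144 (6.10). Of these 6, the DMSO list at 40 µM held all but the one near Chsy, and the taz list held all 6. The label of 160 µM alone thus holds for the 4 lists of the dose series only.

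Of the regions lost by 160 µM, the one with the highest fold lay in CG42507. It spanned 1875 bp at 10 µM (3L, 14752784 to 14754658, fold 10.2) and 531 bp at 40 µM (fold 3.36), and it was absent at 0 and 160 µM and from the wild-type anti-HA, DMSO, taz and anti-Twi lists. It was found in 3 of the 31 lists. The other 4 leading regions of this kind had folds between 3.28 and 3.33. Of these, 2 lay in Sdb and in cdi, a protein kinase gene. The others lay outside genes, 10223 bp from ND-20L and 13259 bp from Ten-m, a teneurin gene.

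The 0 µM list showed what was found without added copper. Of its 77 regions, 74 were called at all 3 higher doses, 33 lay in the wild-type list and 67 in the anti-Twi list. The DMSO list held 60 of them and the taz list 56. Outside the wild-type list the leading regions lay in zld (fold 11.7), near an end of w, the white gene of eye pigment transport (7.24), near an end of CG32795 (5.74), and in CG9171 (5.09). Regions in CG3376 (4.45), lace (4.29), a sphingolipid synthesis gene, dally (3.99), a glypican gene, and nvy (3.72), the gene of a transcriptional corepressor, followed. From CG9171 on, each region was wider at every higher dose than at 0 µM and was also in the DMSO, taz and anti-Twi lists. The nvy region had widths of 334 bp, 1678 bp, 4232 bp and 7930 bp at 0, 10, 40 and 160 µM and folds of 3.72, 12, 6.43 and 6.79.

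Some 0 µM regions had nearly the same edges at every dose. In 6 of the 77, both edges stayed within 100 bp at all 3 higher doses, namely those at zld, w, CG32795, CG14566, eyg and twi. Of the 77 regions, 11 were in none of the wild-type anti-HA, DMSO and taz lists, and 7 of these 11 were in all 4 lists of the Zld dose series. The region 137 bp from CG14566 (3L, 21739216 to 21739467, fold 3.58) was among these 7, and it was called in 21 lists. Over all 77 regions, 66.2% overlapped the Zld list at 0 µM and 59.7% that at 1500 µM. A place in the Zld lists was thus common among the other 0 µM regions too. The zld region spanned 4978 bp at 0 µM (X, 19777411 to 19782388), 5082 bp at 10 µM, 5032 bp at 40 µM and 5026 bp at 160 µM. Its edges moved by at most 58 bp from those at 0 µM. Its folds were 11.7, 17.8, 10.6 and 10.7, and it ranked first in the 0, 10 and 40 µM lists and shared the second place in the 160 µM list with the Slc45-1 region of equal fold. The 4 lists of the Zld dose series held it with edges within 54 bp of those at 0 µM and folds between 10.3 and 13.2. It was absent from the wild-type anti-HA list and from both other HA-Twi lists, and the anti-Twi list held a region of 984 bp at its right end with a fold of 1.97. Wild-type cells with anti-Grh gave a region of 6307 bp over most of it, with a fold of 14.3. The region near w (X, 2795869 to 2796880) had folds of 7.24, 9.77, 5.73 and 6.33 and edges within 32 bp between doses. It was called in 9 lists, namely the 4 HA-Twi doses, the 4 Zld doses and wild type with anti-Grh. The region near CG32795 (X, 2789857 to 2793341) had folds of 5.74, 12.4, 6.45 and 6.86 and edges within 50 bp. It too was in all 4 Zld dose lists and in wild type with anti-Grh, and in none of the wild-type anti-HA, DMSO and taz lists. At CG32795 the edges in the Zld lists differed from those at 0 µM by up to 509 bp, and the anti-Twi list held a region at its left end with a fold of 2.86. Wild-type cells with anti-Zld gave a region of 865 bp at that end, with a fold of 2.84. The cause of these regions was not tested.

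A different pattern was found at twi, the gene of Twist. The region there (2R, 23046448 to 23048143) spanned 1696 bp at 0 µM, 1817 bp at 10 µM, 1759 bp at 40 µM and 1754 bp at 160 µM, with edges within 74 bp of those at 0 µM. Its folds were 2.67, 4.72, 2.82 and 2.71. Wild-type cells gave a region there too, with the anti-HA antibody (1641 bp, fold 3.95) and with anti-Twi (2027 bp, fold 4.98), and so did the DMSO and taz cells. With anti-Zld, wild-type cells gave a region of 704 bp over its left end, with a fold of 7.99. The twi region was thus present in wild-type cells with anti-HA and anti-Twi, in part with anti-Zld, and in HA-Twi cells without added copper.

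**Figure D4:**
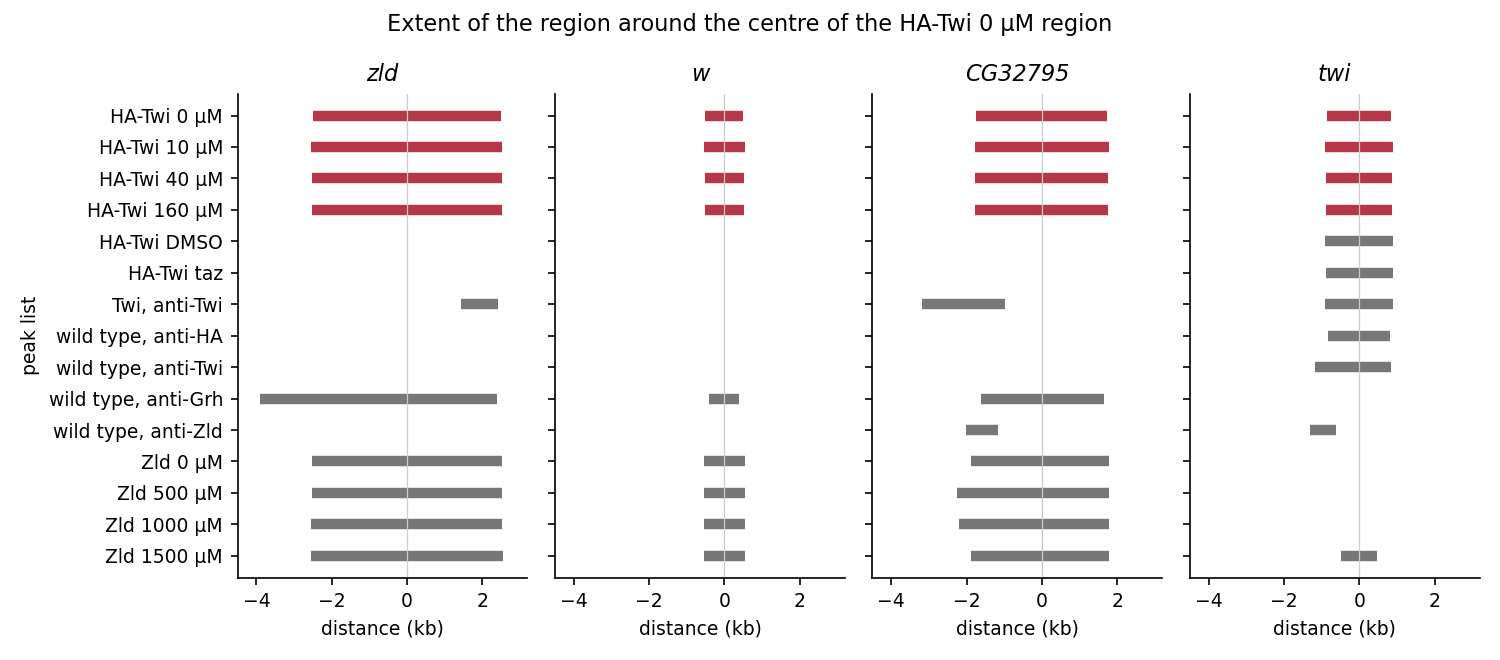
Extent of the region at zld, w, CG32795 and twi in 15 peak lists, as the distance from the centre of the HA-Twi 0 µM region (horizontal axis, kb), with the 4 HA-Twi doses on top. The zld, w and CG32795 regions have nearly the same edges at the 4 HA-Twi doses, are called in the Zld dose series and are absent from the wild-type anti-HA, DMSO and taz lists, while the twi region is in all HA-Twi lists and in wild type.

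Genes were counted with a list when a summit lay in the gene or within 2000 bp of it. Of all 13946 protein-coding genes, 0.509% had a summit at 0 µM, 11.6% at 10 µM, 15.9% at 40 µM and 24.4% at 160 µM, and 21.1% had one in the wild-type anti-HA list. From regions outside the wild-type list the shares were 0.323%, 8.89%, 13.6% and 21.4%. Long genes offer more room for a summit. The median span was 7.17 kb for the 1545 genes with a summit from 10 µM, 4.20 kb for the 792 from 40 µM and 2.87 kb for the 1122 at 160 µM alone. It was 1.84 kb for the 10416 genes with none. The counts over gene lists below stand beside the median span of each list for this reason, and the part of span in them was not tested. Over all protein-coding genes the median span was 2.16 kb.

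Mesoderm regulators had HA-Twi summits from the lowest inducing dose. Of 29 such genes, with a median span of 5.49 kb, 5 had a summit at 0 µM, 15 (51.7%) at 10 µM, 17 (58.6%) at 40 µM and 20 (69.0%) at 160 µM. Wild type with anti-HA had 11 (37.9%). Over all protein-coding genes the shares were 0.509%, 11.6%, 15.9% and 24.4% in the order of dose, and 21.1% in wild type. From regions outside the wild-type list they numbered 1, 11, 14 and 16. With summits in the gene span alone they numbered 4, 6, 6 and 7, so most of the genes counted from 10 µM had their summits in the 2000 bp to either side of the gene. The genes with a summit at 0 µM were twi, how, lbe, ap and pnr, and each of these also had one in wild type.

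Of the factors that specify heart and muscle, Mef2, a regulator of muscle differentiation, had folds of 6.62 at 10 µM, 5.52 at 40 µM and 6.81 at 160 µM, against 2.54 in wild type. Its number of summits was 9, 9 and 12. The heart gene tin had folds of 2.33, 2.51 and 3.34 and 2.32 in wild type, all from single summits. The repressor gene zfh1 had folds of 3.12, 3.61 and 4.64 from 7, 11 and 15 summits. The RNA-binding protein gene how had folds of 2.08, 7.68, 5.13 and 5.68 from 0 µM upward. Each of these genes also had summits in wild type, so a summit there by itself is not particular to HA-Twi cells.

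The T-box genes Doc2 and Doc3 of the dorsal mesoderm had no summit in wild type. Doc2 had folds of 2.98, 4.00 and 8.18 at 10, 40 and 160 µM, and at 160 µM it stood at the 98.1st percentile of that list. Doc3 had folds of 5.13, 6.04 and 7.70, and Doc1, their neighbour, was called from 40 µM (2.47 and 2.92). The GATA factor gene pnr had folds of 2.14, 4.91, 4.27 and 4.77 over the 4 doses and 3.31 in wild type. The bHLH gene Hand of the heart was called from 40 µM (1.79 and 3.07), and bin, a forkhead gene of visceral muscle, likewise (1.91 and 2.13). The myogenic bHLH gene nau (2.45) and the pair-rule gene slp2 (3.61) were called at 160 µM alone. The T-box genes mid (2.71, 2.15 and 2.33) and H15 (2.98 at 10 µM and 2.57 at 160 µM) had 1 summit at each dose where they were called. Among muscle identity genes, ap had folds of 1.47, 3.33, 2.4 and 2.98 and lbe of 2.22, 3.96, 2.68 and 3.10 from 0 µM upward. The neighbour of lbe, lbl, had folds of 3.12, 2.17 and 2.60 from 10 µM. Poxm had folds of 2.39, 2.16 and 3.04 and opa, a zinc-finger gene, of 4.80, 2.50 and 3.37.

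The genes sna, bap, slp1, eve, Kr, Six4, eya, lmd and Him had no summit at any dose. The first of these, sna, encodes Snail, the repressor that acts beside Twist in the ventral embryo. It had no summit in the anti-Twi list either, as was the case for Kr, lmd and Him. The anti-Twi list held bap (3.86), slp1 (3.42), eve (2.41), Six4 (2.60) and eya (3.07), and the taz list held eya (4.43).

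Genes of FGF signalling, the pathway that spreads and maintains the mesoderm, were all called by 160 µM. The 8 genes had a median span of 22.6 kb, against 2.16 kb for all genes. Of them, 6 (75%) had a summit at 10 µM, 7 (87.5%) at 40 µM and 8 (100%) at 160 µM. In wild type 5 (62.5%) had one. From regions outside the wild-type list the counts at the induced doses were the same, at 6, 7 and 8. Of all genes, 11.6%, 15.9% and 24.4% had a summit at these doses, and 21.1% in wild type. The receptor gene htl had folds of 12.7 at 10 µM, 9.11 at 40 µM and 8.86 at 160 µM, and no summit at 0 µM or in wild type. Its summits numbered 1, 4 and 6, so the number of summits was higher at each dose. The ligand gene ths was called from 40 µM (2.70 and 4.26) and the ligand gene pyr from 10 µM (5.45, 4.27 and 4.36). The adaptor gene stumps was called at 160 µM alone in the dose series (5.06), and at 40 µM in the DMSO (4.76) and taz (5.35) lists. The phosphatase gene csw had folds of 5.63, 7.10 and 8.06. The feedback inhibitor genes sty (5.64, 3.46 and 3.81) and aos (1.87, 2.26 and 3.09) and the ETS factor gene pnt (3.04, 3.60 and 4.23) were called at each induced dose. Of these, pnt held 19, 26 and 32 summits over 55.9 kb.

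**Figure D5:**
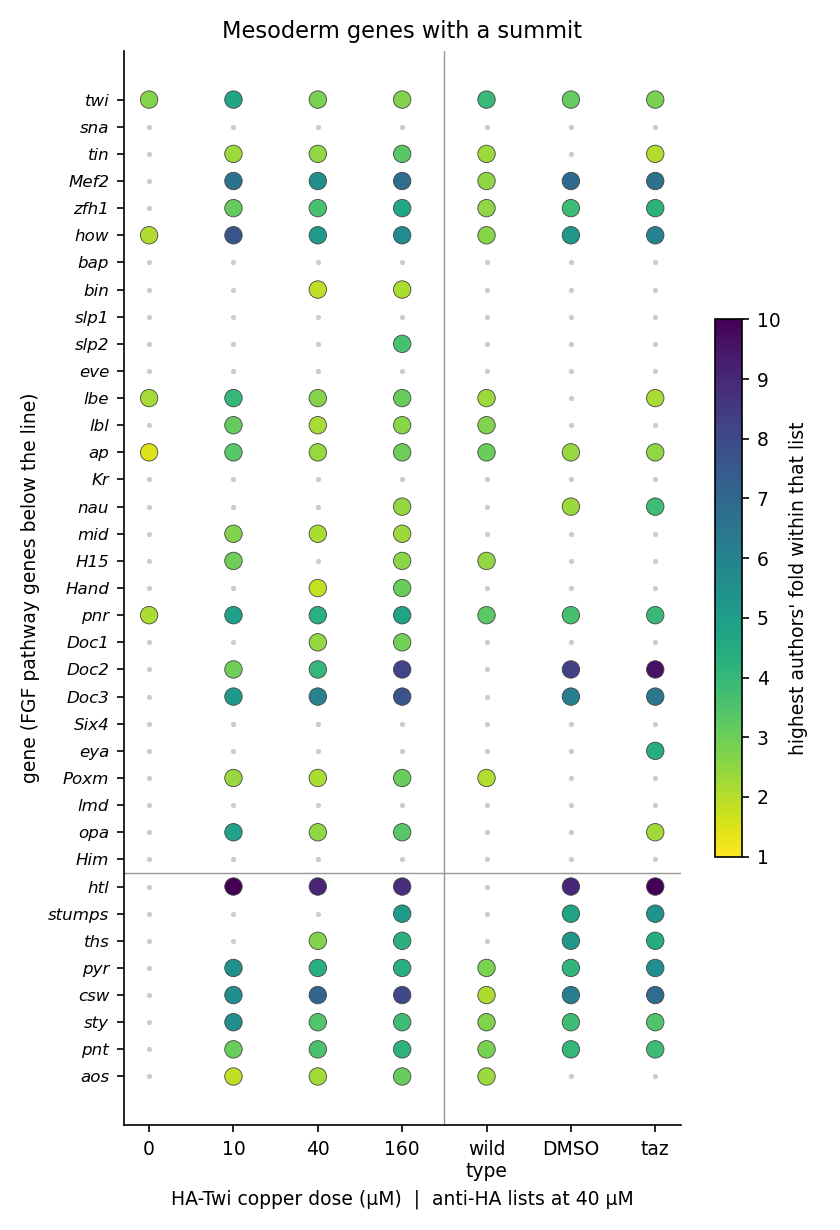
Mesoderm regulators and FGF pathway genes (rows) in the 4 HA-Twi dose lists and in the wild-type anti-HA, DMSO and taz lists (columns), with the highest authors' fold of a summit in or within 2000 bp of the gene as colour and a small dot where there was none. Of the 29 regulators 5, 15, 17 and 20 have a summit at 0, 10, 40 and 160 µM, and htl, Doc2 and Doc3 have one at each induced dose and none in wild type.

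The dorsoventral list holds genes that act before Twist, such as those of the Toll pathway, and genes that act beside or after it. Of its 18 genes (median span 5.11 kb), 8 (44.4%) had a summit at 10 µM, 8 (44.4%) at 40 µM and 9 (50.0%) at 160 µM, and 7 (38.9%) in wild type. Of all genes, 11.6%, 15.9% and 24.4% had one at these doses, and 21.1% in wild type. Tl, the Toll receptor gene, had folds of 2.88, 6.63 and 7.95, and sog, an inhibitor of BMP signalling, of 3.62, 5.34 and 7.13. The NF-kappaB inhibitor gene cact had folds of 6.01, 4.03 and 4.00 and the repressor gene brk of 4.45, 3.48 and 3.94. Among 11 gastrulation genes (30.9 kb) the counts were 5 (45.5%), 6 (54.5%) and 7 (63.6%), with 6 (54.5%) in wild type. The integrin genes mew (7.91, 8.59 and 9.47) and if (2.93, 3.97 and 6.97) and T48 (5.49, 4.46 and 5.81), a gene of apical constriction, were called from 10 µM. The G-protein gene cta was called from 40 µM (4.45 and 5.30).

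Most muscle structure genes with a summit were first called at 40 or 160 µM. Of 21 muscle structure genes (4.97 kb), 1 (4.76%) had a summit at 10 µM, 5 (23.8%) at 40 µM and 7 (33.3%) at 160 µM. In wild type 2 (9.52%) had one. Of all genes, 11.6%, 15.9% and 24.4% had one at these doses, and 21.1% in wild type. The share of the list was thus lower than that of all genes at 10 µM and higher at 40 and 160 µM, on few genes. The actin gene Act87E was called from 40 µM with folds of 5.59 and 8.45, the paramyosin gene Prm at 160 µM alone (5.05), the nesprin gene Msp300 at each induced dose (2.30, 2.74 and 5.10) and the titin-like gene sls from 40 µM (2.4 and 3.74). Of 13 myoblast fusion genes (19.9 kb) the counts were 1 (7.69%), 5 (38.5%), 6 (46.2%) and 8 (61.5%) from 0 µM, with 7 (53.8%) in wild type. The scaffold gene rols had folds of 2.05, 4.58 and 7.24, the exchange factor gene siz of 4.56, 6.15 and 7.09 and Vrp1, an actin regulator, of 2.12, 2.91 and 5.02. The adhesion gene kirre had folds of 7.24, 12.4, 9.61 and 10.4, where those at 0 and 10 µM were the folds of the regions near w and CG32795, which lie within its span of 394 kb.

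Genes of the host cell and other classes gave the comparison. At 10, 40 and 160 µM, 11.6%, 15.9% and 24.4% of all genes had a summit, and 21.1% in wild type. Of 20 blood cell genes (14.5 kb), 11 (55.0%) had a summit at 10, 40 and 160 µM alike, and 9 (45.0%) in wild type. Among them were Pvf3 (5.83, 7.20 and 9.91), a growth factor gene, the collagen gene vkg (8.19, 6.65 and 7.83), kn (3.05, 5.00 and 6.68), the gene of the factor Collier, and Pxn (5.45, 5.93 and 6.59), a peroxidase gene of the matrix. Of 30 Polycomb target genes (19.6 kb), 16 (53.3%) had a summit at 10 µM, 23 (76.7%) at 40 µM and 27 (90%) at 160 µM. In wild type 13 (43.3%) had one. All 30 had one in the anti-Twi list, for which no share of all genes was computed. That list also had a summit at 94.1% of 85 ribosomal protein genes. The Polycomb targets were led by inv (2.72, 5.20 and 9.16), bab2 (6.43, 7.35 and 7.69), ct (4.14, 6.57 and 7.42) and Antp (5.65, 4.84 and 7.08). Of 11 bHLH partner and related genes (2.13 kb), 1 (9.09%), 1 (9.09%) and 2 (18.2%) had a summit at the induced doses. With 11 genes, these counts are too small to set the list apart from the 11.6%, 15.9% and 24.4% of all genes. The listed genes with a summit were emc (3.29, 2.49 and 2.85), which encodes an inhibitor of bHLH proteins, and HLH54F (2.03 at 160 µM). The gene of the dimer partner Daughterless, da, and ac had none.

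Copper and stress response genes, taken as a single list, and ribosomal protein genes had a summit in wild type more often than at any HA-Twi dose. Of 22 copper and stress response genes (2.10 kb), 1 (4.55%) had a summit at 10 µM, 6 (27.3%) at 40 µM and 6 (27.3%) at 160 µM. In wild type 13 (59.1%) had one. Of all genes, 11.6%, 15.9% and 24.4% had one at these doses, and 21.1% in wild type. Apart from MtnA, Ctr1B and ATP7, the listed genes with a wild-type summit were genes of the heat-shock response. The metal genes MtnA, MTF-1, Ctr1A and ATP7 had a summit at 40 and 160 µM, so the higher wild-type count does not hold for the metal genes alone. The listed genes with the highest folds at 160 µM were the copper transporter genes ATP7 (5.39 at 40 µM and 6.33 at 160 µM) and Ctr1A (4.17 and 5.43). The metal-responsive factor gene MTF-1 (2.34 and 3.39) and Hsp23 (3.32 at 160 µM), a small heat-shock protein gene, came next. Of 85 ribosomal protein genes (1.33 kb), 5 (5.88%) had a summit at 10 µM, 7 (8.24%) at 40 µM and 11 (12.9%) at 160 µM, below the shares of all genes, and 71 (83.5%) had one in wild type. Those with the highest folds at 160 µM were RpS4 (4.50), RpS21 (4.20), RpL7 (3.82) and RpL13A (2.95).

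The other factors of the study were induced at other doses and with other antibodies, so their series stand beside this one without a comparison. The Grh lists held 1181 regions at 0 µM, 8458 at 25 µM, 10758 at 100 µM and 11903 at 400 µM, and the Zld lists 6719 at 0 µM, 8988 at 500 µM, 9449 at 1000 µM and 9615 at 1500 µM. Of the Grh regions, 96.1% of those at 25 µM and 81.7% of those at 100 µM were found at the next dose.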

How the data were processed

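ChIP-seq peak lists of S2 cells were analysed, 1 per group of 2 libraries. Per the submitters' processing notes, the tools were MACS2 2.2, Bowtie2 2.4.4 and deepTools 3.5.1, and coordinates are on dm6. Their roles and settings are not stated there. The deposited lists give the authors' fold enrichment, a ratio of pileup to local background, and −log10 p-values and −log10 q-values per summit. No source used here names the filter behind gaps in the peak numbers. Summits sharing the same start and end were treated as a single region carrying the top fold among them. Regions overlapping by at least 1 bp counted as shared, and regions of different lists were merged where they overlapped. Intervals are exact Clopper-Pearson 95% intervals, or, for medians, order-statistic 95% intervals; neighbouring regions are not independent. No test was made.

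The files give no sequencing depth. Local background was recovered from fold and −log10 p-value (up to 250) with a Poisson model. In the 4 HA-Twi dose lists 100% of the recovered pileups were whole within a relative tolerance of 0.0001. The overlap and recovery steps were checked on simulated data.

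Gene positions (13946 protein-coding genes) came from RefSeq annotation of the same assembly. The table used here has no strand, so distance was taken to either gene end, the nearest gene by its span (the shortest where several hold the summit). Named regions were ranked by fold at the highest dose holding them, outside the wild-type list: 10 called at 10, 40 and 160 µM, 6 from 40 µM, 6 at 160 µM alone, 5 not at 160 µM and 8 at 0 µM. Every mesoderm and FGF gene was named and up to 4 of each other list, by fold at 160 µM. The regions and gene lists were chosen with earlier results of these data known. E-box counts were planned and not made, since no genome sequence was used. The tools were Python 3.11.15, pandas 2.3.3, numpy 2.4.6 and scipy 1.17.1.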

Additional observations from a re-analysis of the deposited data

How the results depend on the processing

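Each setting was changed alone. Of 90 recomputed values, 43 stayed within 1.5 times (counts) or within the interval of the main value (shares and medians), and 47 did not. None changed the order of dose from 10 to 160 µM for region numbers, while shares near gene ends did change theirs, as given below. A −log10 q-value of at least 10 left 49 regions at 0 µM. A fold of at least 3 left 11, 994, 1529 and 2647 regions from 0 to 160 µM, and without wild-type regions 44 were left at 0 µM. With a fold of at least 3 in the first list, the share found at the next dose was 100%, 98.7% and 99.8%. The share in wild type was then 9.09%, 21.3%, 11.3% and 10.7%, so the 0 µM list no longer had the highest share, and the share in the anti-Twi list was 97.3%, 97.6% and 97.5% from 10 µM. Requiring a summit within 150 bp gave 85.5% and 95.4% for the steps from 10 and 40 µM, 24.7%, 14.2% and 11.3% in wild type, and 81.6%, 86.0% and 88.8% in the anti-Twi list. Outside wild type the step from 10 µM was 90.2%. Within 1000 bp of a gene end lay 23.4%, 24.2%, 21.9% and 25.8% of summits from 0 µM, so that the 0 µM share was no longer the highest, and over all summits 14.8% at 160 µM. Mesoderm genes with a summit in the gene span alone numbered 6, 6 and 7 from 10 µM, and at 0 µM outside wild type 1. Between the 10 and 40 µM lists the median summit distance was 15 bp for nearest summits and 17 bp with 1 summit in both; between 40 and 160 µM it was 10 bp and 11 bp.

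Further alternatives were chosen after the data were seen. The median fold at 160 µM of regions called at 10 and 40 µM was 3.88 outside wild type, above the 3.52 of those from 40 µM, and 3.01 with 1 summit, below their 3.29. The order of these classes thus depends on the regions entered. For regions at 160 µM alone it was 2.48 outside wild type. With every list cut to the number of regions at 10 µM by fold, 62.7% of the 10 µM regions were found at 40 µM and 81.3% of the 40 µM regions at 160 µM. The wild-type share was then 14.5% at 40 µM and 9.93% at 160 µM, and the share near a gene end 10.8% and 11.4%. E-box shares were not run. No paired analysis was possible because each list pools its 2 libraries, and no library could be left out for the same reason. The files give no depth, so its part in the absence of weak regions from a list was not tested.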

Other observations

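Some long genes carried many HA-Twi summits. The 12 protein-coding genes with the most summits at 160 µM, chosen after their values were seen, were led by bun, a gene of the TSC22 family, with 0, 19, 31 and 43 summits at 0, 10, 40 and 160 µM over a span of 91.1 kb. The cofactor gene ush followed with 1, 28, 28 and 38 summits over 64.3 kb, and 20 in wild type with anti-HA. In cv-c the summits numbered 0, 14, 25 and 35, and in shn, the gene of a BMP-responsive factor, 0, 23, 25 and 32. The insulin receptor gene InR had 0, 18, 24 and 28 summits, with 4 in wild type. The homeobox gene ct had 0, 11, 24 and 29, with 1 in wild type.

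At MtnA, a metallothionein gene chosen after its values were seen, a summit was called at each dose, with folds of 1.46, 2.27, 1.32 and 1.34, and in wild type with anti-HA at a fold of 3.88.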
